A study of Mus musculus with 6 samples.

Results

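The histone genes are those whose symbol on the array names a linker or core histone, that is, starts with H1f, H2a, H2b, H3c, H3f, H4c, H4f or Hist1h to Hist4h, without the H2- genes of the major histocompatibility complex. By this rule 76 of 25697 probes and 68 of 16593 named genes were members, and 48 of the 68 genes were measured, which here means detected (detection p-value under 0.05) on 3 or more of the 6 arrays. The groups were 3 cultures with 1 mM valproic acid (VPA), an inhibitor of histone deacetylases, the enzymes that take acetyl groups off histones, and 3 control cultures with growth factors only. All 6 held hematopoietic stem and progenitor cells from C57Bl/6 bone marrow, sorted by the L-S+K+ phenotype and kept for 24 h in medium with fetal calf serum and the cytokines SCF and GM-CSF. The labels do not say how many mice gave the cells of a culture, and they give no genetic change in either group. Of 8 stem and progenitor markers on the array, 6 were detected on all arrays (Cd34, Flt3, Gata2, Meis1, Myb and Spi1) and Hlf on none. All 4 T cell markers were undetected throughout, and all 4 neutrophil markers were detected throughout. Of 3 B cell markers on the array, Cd79b was detected on all arrays, Cd79a on 2 control arrays and Ms4a1 on none. The erythroid markers Klf1 and Hba-a1 and the macrophage marker Adgre1 were detected on all arrays.

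Histones package DNA. A nucleosome holds pairs of H2A, H2B, H3 and H4, and a linker histone, H1, binds where the DNA enters and leaves it. Most histone genes are replication-dependent: they lie in clusters, are used in S phase, and their mRNAs end in a stem loop instead of a poly(A) tail. Most replacement histones come from single genes outside the clusters, are made throughout the cell cycle, and have polyadenylated mRNAs. The replacement class was set here by gene symbol, and also holds a family of H2A variants known from mouse testis. The labelling kit used here primes from poly(A), so a signal of a replication-dependent gene comes from its polyadenylated transcripts, or from priming elsewhere. Such a signal cannot be taken as a measure of its stem-loop mRNA, and its source was not tested. Many copies of a core histone gene are nearly identical in sequence, and which copies a probe reads was not tested.

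Of the 48 measured genes 40 were replication-dependent and 8 were replacement genes. The other 20 did not pass the detection filter: 12 were undetected on every array, and 8 were detected on 1 array, which was VPA 1 for H1f8, H2ac18, H2bc6 and H4f16. Undetected probes had a lower median raw signal on VPA 1 (95.2) than on the other arrays (106 to 134). The raw signals of H2ac18, H2bc6 and H4f16 were lower on VPA 1 (108.6, 106 and 112.7) than on any other array. That of H1f8 on VPA 1 (105.6) was above only that on VPA 2 (96). These 20 held 7 of the 9 linker genes, among them H1f1, H1f3, H1f4 and H1f5 of the replication-dependent set, and all 3 testis genes of the clusters (H1f6, H2ac1 and H2bc1). All 11 H3 genes, 10 of 11 H4 genes, 9 of 14 H2B genes and 16 of 23 H2A genes were measured.

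At adjusted p 0.05 by limma, 1 of the 48 histone genes was called higher with VPA and 0 were called lower. The called gene was the linker histone gene H1f10, higher by 2.01-fold. A gene that was not called is not shown to be unchanged. Over all 7967 measured genes 3.41% were higher and 0.314% lower by the same test (3.73% in either direction), so 1 of 48 is a share near that background. The call of H1f10 was lost with median scaling, without a detection filter and with the replicate number as a block, as given below. It was also lost when any 1 array other than VPA 1 was left out. At an unadjusted p under 0.05, 4 histone genes were higher, as were 11.5% of all genes, and 1 lay lower, as did 5.59%. The VPA arrays all lay on one side of the control arrays in 10 of the 48 genes, or 20.8%, against 27.9% of all genes. The 95% interval of the change stayed within 2-fold in both directions for 39 histone genes, or 81.2%, against 74.7% of all genes. In RNA of whole cultures, a change in the kinds of cells and a change within cells cannot be told apart.

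The array of VPA replicate 1 (VPA 1) was dimmer than the other 5. Its median raw signal over the measured probes of all genes was 226, against 456 and 474 on the other VPA arrays and 496 to 647 on the control arrays. Over all genes its correlation with another VPA array was as low as 0.947, while control arrays reached at least 0.989 with each other. For 11 of the 48 histone genes (22.9%) VPA 1 lay more than 0.5 log2 units below both other VPA arrays, and for 3 (6.25%) as far above them, against 20.1% and 14.7% of all genes. The 11 were H3f3b, H2ac10, H2ac21, H2ac22, H2bc4, H2bc15, H3c13, H3c14, H4c2, H4c6 and H4c14, and the 3 were H1f2, H2aj and H3c6. Values without VPA 1 are therefore given beside many of the changes below.

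**Figure D1:**
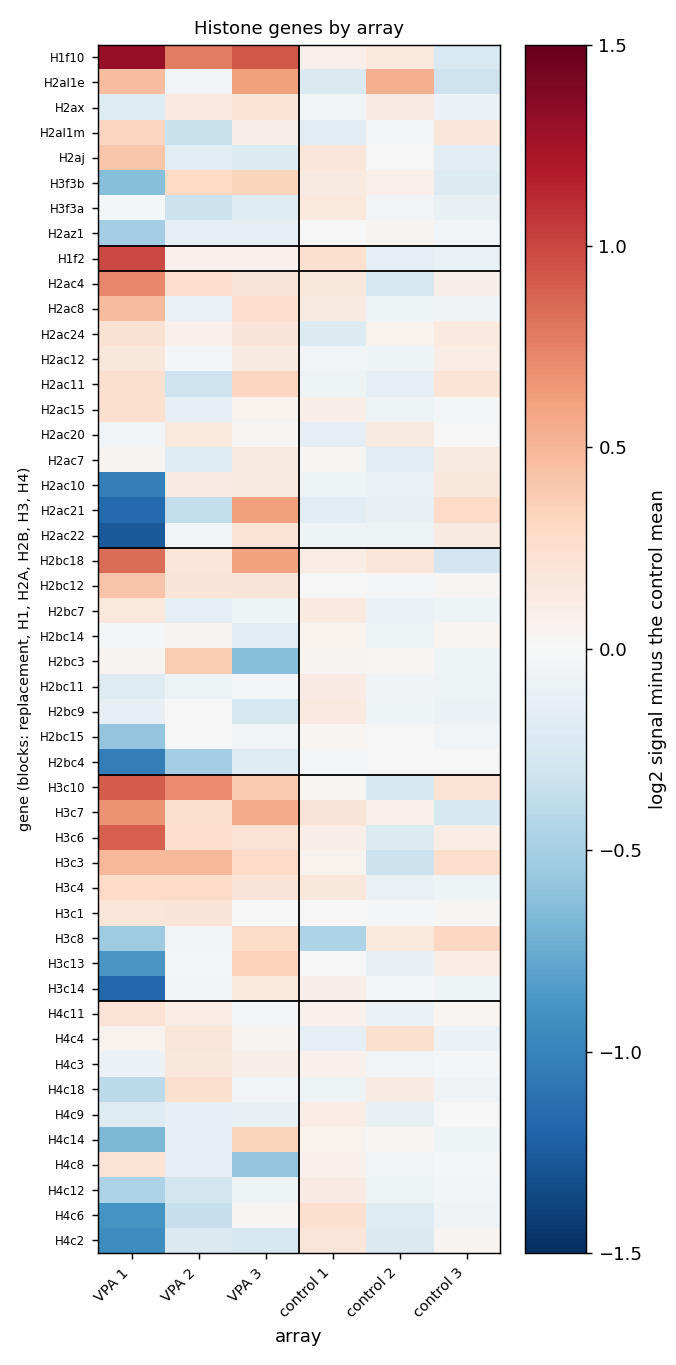
Normalized log2 signal minus the control mean of the gene (colour) for 48 measured histone genes (rows, in blocks of replacement genes and replication-dependent H1, H2A, H2B, H3 and H4 genes) on the 3 VPA arrays and the 3 control arrays. H1f10 in the top row was above the control mean on all 3 VPA arrays, and the deepest blue cells lie in the VPA 1 column, in genes such as H2ac22 and H3c14.

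The linker histones come first, since H1f10 is one of them. H1f10 encodes H1.10, also called H1X, a replacement linker histone encoded outside the clusters. Its normalized log2 signals were 10.76, 10.22 and 10.38 on the VPA arrays, against 9.53, 9.61 and 9.22 on the control arrays. The groups did not overlap, and the lowest VPA array was 0.62 above the highest control array. The log2 change was 1.00 ± 0.20 (SE, n = 3 per group; 95% interval 0.55 to 1.46; adjusted p = 0.0399 by limma). Without VPA 1 it was 0.85, with an adjusted p of 0.0188. The call was lost without any 1 of the other 5 arrays, with adjusted p up to 0.170 and the log2 change between 0.89 and 1.12. It was also lost with median scaling (log2 change 0.69, adjusted p = 0.105), without a detection filter (adjusted p = 0.0653) and with the replicate block (adjusted p = 0.0621). Median scaling shifted the median of all 7967 genes from -0.02 to -0.29, and relative to that median the change of H1f10 was 0.99. A second, dimmer probe of H1f10 gave 8.51, 8.58 and 8.48 with VPA, against 7.995, 7.68 and 7.57 in control. These groups did not overlap either, and the log2 change of 0.77 ± 0.16 (adjusted p = 0.0506) was just outside the threshold.

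H1f2, the one replication-dependent linker gene measured, encodes H1.2. Its log2 signals were 10.48, 9.56 and 9.55 with VPA, against 9.73, 9.35 and 9.40 in control. The groups overlapped and VPA 1 stood above the rest, so the log2 change of 0.37 ± 0.28 (adjusted p = 0.524) was 0.06 without that array. With median scaling it was 0.04, or 0.34 relative to the median of all genes. Whether H1f10 and H1f2 differ in their response was not tested.

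The promoters of these 2 linker genes are shown because one gene was called and the other was not. Each runs from 250 bases before to 50 bases after the gene's start, 5′ to 3′ on the gene's strand, from RefSeq on GRCm38.p6, at chr6:87981433-87981732 (minus strand) and chr13:23738557-23738856 (plus strand). Capitals mark matches, on either strand, to 4 motifs: CCAAT (the CCAAT box), TATAAA (the TATA box), ATTTGCAT (the octamer known from H2B promoters) and AAACACA (the element known from H1 promoters). No marked matches overlapped.
H1f10: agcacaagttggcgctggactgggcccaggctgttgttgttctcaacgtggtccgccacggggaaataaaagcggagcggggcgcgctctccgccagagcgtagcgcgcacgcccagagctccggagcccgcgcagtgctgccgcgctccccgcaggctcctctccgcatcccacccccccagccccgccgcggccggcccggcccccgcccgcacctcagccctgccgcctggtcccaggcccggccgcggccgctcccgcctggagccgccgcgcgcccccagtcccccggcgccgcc
H1f2: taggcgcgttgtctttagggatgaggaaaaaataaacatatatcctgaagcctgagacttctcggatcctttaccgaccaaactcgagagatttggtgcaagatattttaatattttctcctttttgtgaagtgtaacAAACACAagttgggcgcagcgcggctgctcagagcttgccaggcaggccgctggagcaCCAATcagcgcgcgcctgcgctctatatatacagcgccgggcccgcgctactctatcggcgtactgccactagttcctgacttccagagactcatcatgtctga
The H1f10 window held 0 matches to the 4 motifs. The H1f2 window held the H1 element and the CCAAT box once each. AAACACA was found in 4 of 5 windows of replication-dependent linker genes, against 7.18% of all 32851 windows of this length. CCAAT was in all 5 of them, against 37.4% of all windows. A match is a string of letters here and not evidence of binding, and no match says only that the letters are not in the window.

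**Figure D2:**
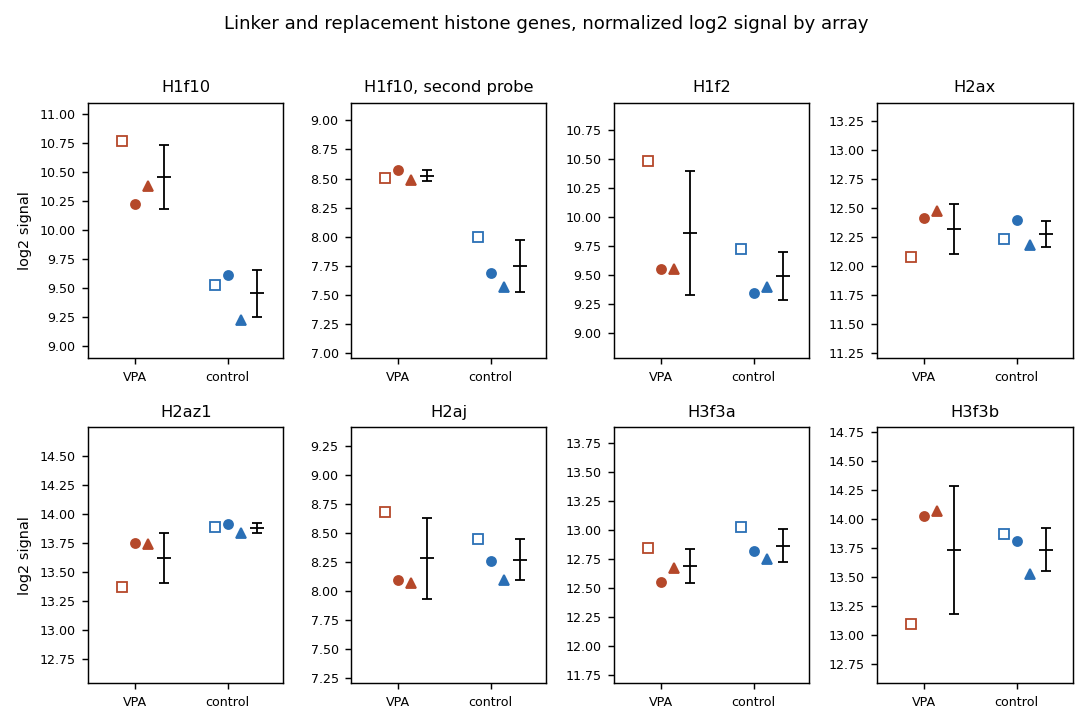
Normalized log2 signal (y axis, with the same span in every panel) on each VPA and control array for H1f10 with both probes, H1f2 and 5 replacement core histone genes. Squares, circles and triangles are replicates 1, 2 and 3, and bars are mean ± SD (n = 3). The groups stand clear of each other for both H1f10 probes and, narrowly, for H2az1, and the VPA square is far from the other VPA symbols for H1f2 and H3f3b.

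Among the replacement core histones 0 of 7 measured genes passed the test. H2az1 encodes H2A.Z, the variant at nucleosomes that flank promoters. Its log2 signals were 13.37, 13.75 and 13.74 with VPA, against 13.89, 13.92 and 13.84 in control. All 3 VPA arrays lay below all control arrays, by 0.09 at the nearest, and the log2 change was -0.26 ± 0.16, or -0.14 without VPA 1 (adjusted p = 0.445 with it). H2ax encodes H2A.X, which is phosphorylated at DNA breaks. It had 12.07, 12.41 and 12.47 with VPA, against 12.23, 12.39 and 12.18 in control. The groups overlapped, with a log2 change of 0.05 ± 0.17 (95% interval -0.34 to 0.44). With median scaling it was -0.21, or 0.08 relative to the median of all genes. H2aj, an H2A variant gene that lies apart from the clusters, had 8.68, 8.10 and 8.07 with VPA, against 8.45, 8.26 and 8.10 in control. Its log2 change was 0.01 ± 0.21 and turned to -0.19 without VPA 1.

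H3f3a and H3f3b both encode H3.3, the replacement form of H3, which is placed at active genes and not only in S phase. H3f3a had log2 signals of 12.85, 12.55 and 12.68 with VPA, against 13.03, 12.82 and 12.75 in control. The groups overlapped between VPA 1 and 2 of the control arrays (log2 change -0.18 ± 0.16, adjusted p = 0.593). A second H3f3a probe, detected on 3 VPA arrays and 1 control array, gave a log2 change of 0.63 ± 0.35 (adjusted p = 0.404), of opposite sign. Without VPA 1 the change of this second probe was 0.23. It was dim, with raw signals of 139.2 to 186.5. H3f3b had 13.10, 14.03 and 14.06 with VPA, against 13.87, 13.80 and 13.53 in control. VPA 1 was the lowest of the 6 and the other VPA arrays the highest, so the log2 change was -0.005 ± 0.28 with VPA 1 and 0.31 without it.

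H2al1e and H2al1m belong to a family of H2A variants known from mouse testis. Both were detected on 2 VPA arrays and 1 control array. H2al1e had log2 signals of 5.94, 5.44 and 6.09 with VPA, against 5.26, 6.01 and 5.17 in control (log2 change 0.34 ± 0.28, adjusted p = 0.549). H2al1m had 5.87, 5.22 and 5.64 with VPA, against 5.40, 5.52 and 5.73 in control (0.03 ± 0.20, adjusted p = 0.955). The groups overlapped for both genes, whose signals were at the edge of detection.

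In the comparison of the classes, the 40 replication-dependent genes had a median log2 change of -0.006 (-0.22 with median scaling) and a range of -0.57 to 0.67. The 8 replacement genes had a median of 0.02 (-0.22 with median scaling) and a range of -0.26 to 1.00. Without the testis variants H2al1e and H2al1m, the median of the other 6 was 0.005. The median over all 7967 genes was -0.02, and median scaling shifted it to -0.29, so that both classes then lay 0.07 above it. Array by array, the median difference of the replication-dependent genes from their control means was 0.04, 0.001 and 0.11 for VPA 1, 2 and 3, against 0.05, -0.07 and -0.004 for control 1, 2 and 3. That of the replacement genes was 0.15, -0.09 and 0.15 with VPA, against 0.04, 0.05 and -0.14 in control. Without H2al1e and H2al1m it was -0.11, 0.005 and 0.03 with VPA, against 0.11, 0.05 and -0.14 in control. The VPA and control arrays overlapped for both classes. The groups did not overlap in 8 of 40 replication-dependent genes and 2 of 8 replacement genes, against the 27.9% of all genes given above.

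**Figure D3:**
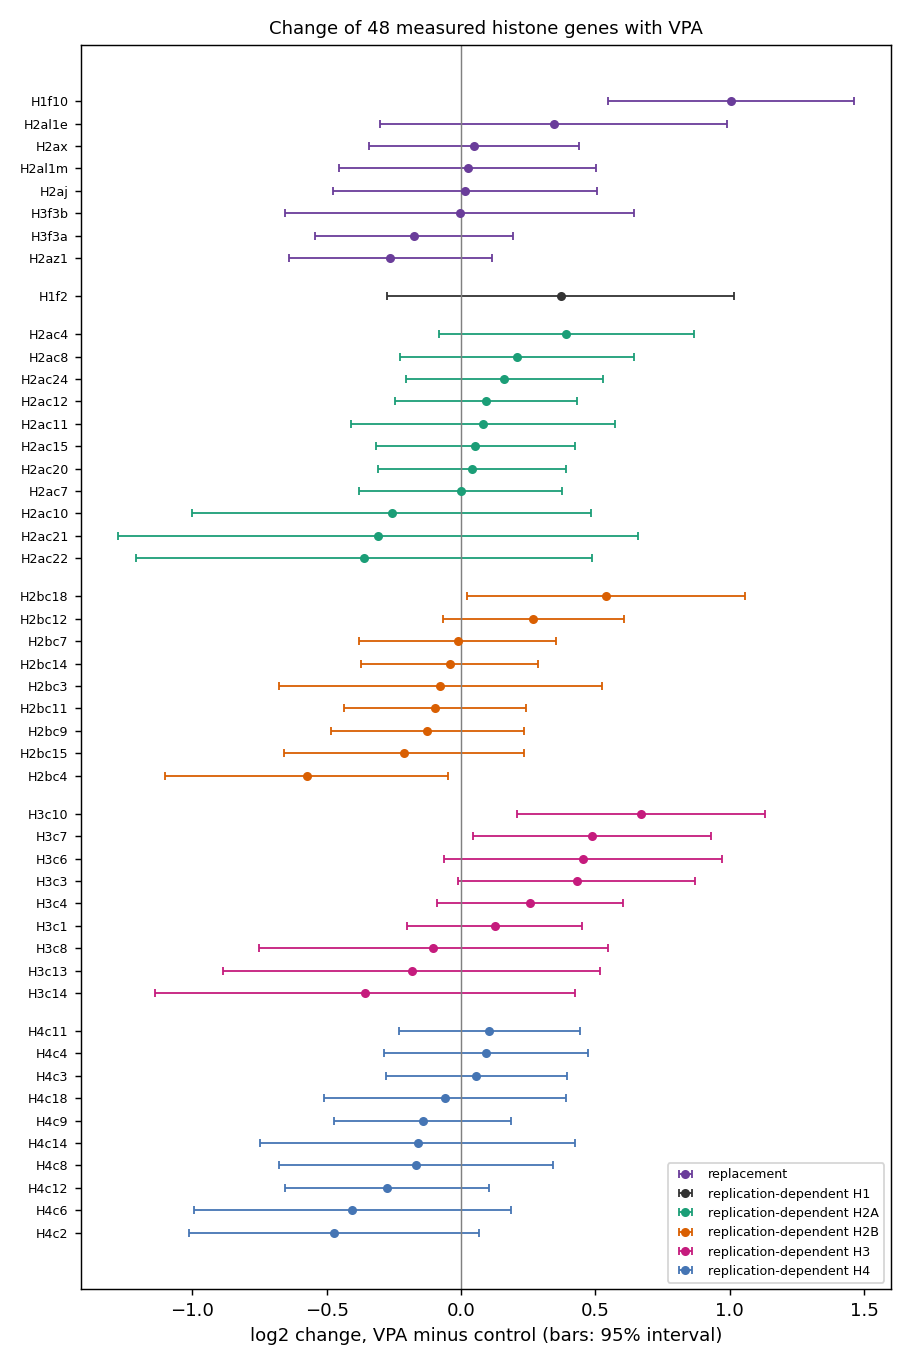
Log2 change, VPA minus control, with its 95% interval from the limma fit (x axis) for the 48 measured histone genes (rows), coloured by class and family. H1f10 at 1.00 is the farthest from 0, most other intervals include 0, and the H3 block leans to the right and the H4 block to the left of 0.

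The replication-dependent families did not sit alike around 0. Of 9 H3 genes 6 had a log2 change above 0, with a median of 0.26, whereas with median scaling 4 were above 0 and the median was -0.07, still 0.23 above that of all genes. Of 10 H4 genes 3 were above 0, with a median of -0.15, and with median scaling 0 were above 0 and the median was -0.38, which is -0.08 relative to all genes. Without VPA 1 the medians were 0.24 for H3, with 9 of 9 above 0, and -0.03 for H4, with 5 of 10 above 0. The 11 H2A genes had a median of 0.05 (-0.13 with median scaling) and the 9 H2B genes one of -0.08 (-0.43 with median scaling). Relative to all genes, the medians with median scaling were 0.165 for H2A and -0.132 for H2B. By limma 0 of these 39 genes passed adjusted p 0.05. At unadjusted p 0.05 there were 3 on the higher side (11.5% of all genes) and 1 on the lower (5.59% of all genes). Whether the families differ was not tested.

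H3 genes held 5 of the 7 replication-dependent genes in which all VPA arrays were above all control arrays. These 5 were H3c3, H3c4, H3c6, H3c7 and H3c10, of 9 H3 genes, where 16.7% of all genes had VPA arrays above control arrays. H3c10 encodes H3.1, an H3 form deposited at replication. It had log2 signals of 7.62, 7.42 and 7.11 with VPA, against 6.74, 6.47 and 6.93 in control. This probe was dim: its raw signals were 159.4, 271 and 236.9 with VPA, against 267, 189.4 and 251.7 in control, which overlapped. Undetected probes had median raw signals of 95.2 to 134 per array. After normalization the nearest arrays were 0.17 apart, and the log2 change was 0.67 ± 0.20 (95% interval 0.21 to 1.13; adjusted p = 0.143). It was 0.55 without VPA 1, 0.31 in the deposited values and 0.37 without background correction. With median scaling it was 0.39, or 0.685 relative to the median of all genes. H3c7 encodes H3.2, a close relative of H3.1. It had 8.28, 7.85 and 8.16 with VPA, against 7.80, 7.68 and 7.34 in control. The groups were 0.05 apart at the nearest, with a log2 change of 0.49 ± 0.19 (adjusted p = 0.248). It was 0.28 in the deposited values and 0.16 with median scaling (0.45 relative to the median of all genes).

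The other H3.2 genes did not form one pattern. H3c3 and H3c4 had log2 changes of 0.43 ± 0.19 and 0.26 ± 0.15, or 0.40 and 0.24 without VPA 1. H3c6 had 0.46 ± 0.22, or 0.23 without VPA 1. H3c13 and H3c14, which lie in the smaller cluster on chromosome 3, had -0.18 ± 0.30 and -0.36 ± 0.33. In H3c14 the log2 signals were 11.41, 12.56 and 12.75 with VPA, against 12.69, 12.57 and 12.54 in control, so VPA 1 alone lay below the control arrays. Without VPA 1 the changes were 0.16 for H3c13 and 0.06 for H3c14. A second H3c14 probe and the other 2 probes of H3c7 did not pass the detection filter.

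The H3c10 promoter is shown because this gene had the largest log2 change among the replication-dependent genes. It lies at chr13:21717378-21717677 on the plus strand of GRCm38.p6, with the same motifs in capitals.
H3c10: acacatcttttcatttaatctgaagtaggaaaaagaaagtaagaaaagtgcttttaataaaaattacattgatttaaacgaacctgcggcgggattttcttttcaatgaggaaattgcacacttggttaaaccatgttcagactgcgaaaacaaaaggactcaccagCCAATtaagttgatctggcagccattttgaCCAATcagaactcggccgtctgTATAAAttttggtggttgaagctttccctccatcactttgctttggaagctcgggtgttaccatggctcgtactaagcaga
CCAAT occurred at 2 places and TATAAA at 1. CCAAT was in 7 of 7 windows of replication-dependent H3 genes and in 2 of 10 windows of H4 genes, against 37.4% of all windows. TATAAA was in 2 of 7 H3 windows and 6 of 10 H4 windows, against 13.6% of all.

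**Figure D4:**
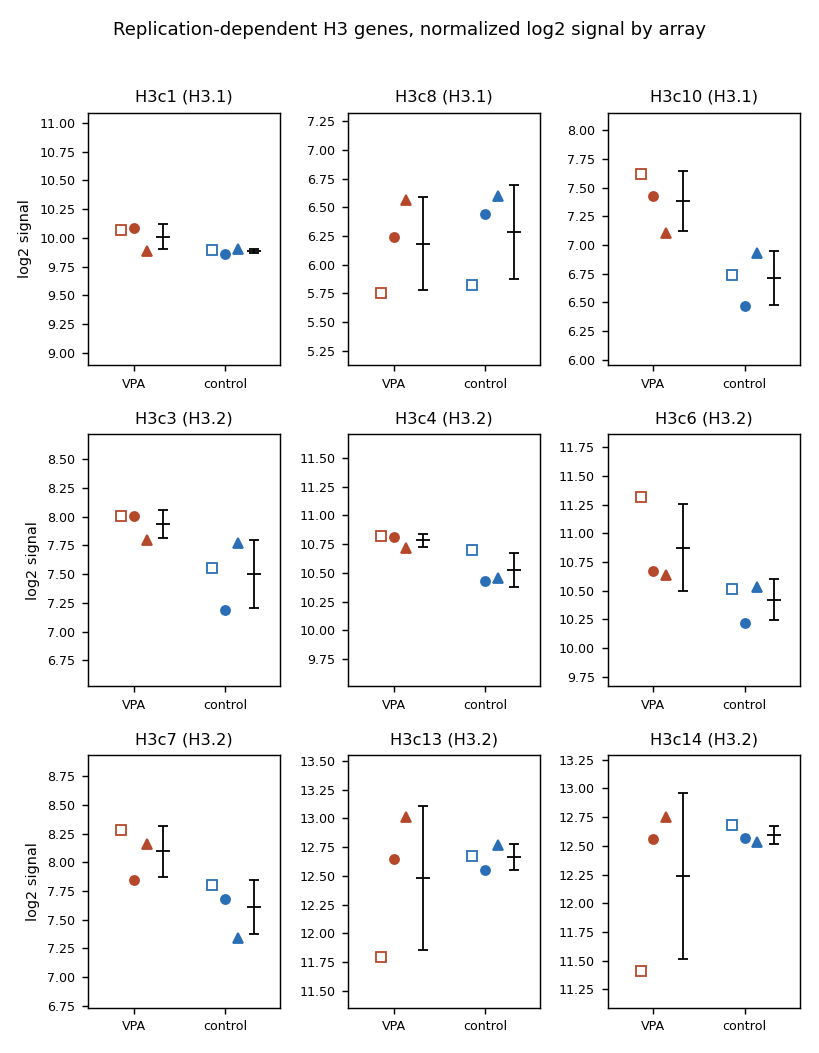
Normalized log2 signal (y axis, with the same span in every panel) on each VPA and control array for the 9 replication-dependent H3 genes, labelled by the protein they encode. Squares, circles and triangles are replicates 1, 2 and 3, and bars are mean ± SD (n = 3). The VPA symbols lie above the control symbols for H3c10, H3c3, H3c4, H3c6 and H3c7, and the VPA square falls far below the rest for H3c13 and H3c14.

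The lowest log2 changes were those of 1 H2B gene and 2 H4 genes. H2bc4, an H2B gene of the chromosome 13 cluster, had log2 signals of 9.91, 10.43 and 10.77 with VPA, against 10.93, 10.95 and 10.95 in control. It was the one replication-dependent gene with all VPA arrays below all control arrays, which held for 11.2% of all genes. The control arrays lay within 0.02 of each other and the VPA arrays spread over 0.86. The log2 change was -0.57 ± 0.23 (adjusted p = 0.251), -0.34 without VPA 1 and -0.93 with median scaling (-0.64 relative to the median of all genes).

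H4c2 and H4c6 encode the same H4 protein as the other H4 genes here. H4c2 had log2 signals of 6.02, 6.74 and 6.69 with VPA, against 7.13, 6.73 and 6.996 in control. On VPA 1 its raw signal was 111.6, where undetected probes had a median of 95.2. The groups overlapped by 0.01, with a log2 change of -0.47 ± 0.23 (adjusted p = 0.354). It was -0.24 without VPA 1 and -0.19 in the deposited values. H4c6 had 9.48, 10.03 and 10.39 with VPA, against 10.61, 10.18 and 10.31 in control. The groups overlapped, with a log2 change of -0.40 ± 0.25 (adjusted p = 0.453). It was -0.16 without VPA 1 and -0.77 with median scaling (-0.47 relative to the median of all genes).

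Among H2B genes the highest log2 change was that of H2bc18, in the chromosome 3 cluster. It had log2 signals of 8.79, 8.13 and 8.56 with VPA, against 8.07, 8.13 and 7.66 in control. VPA 2 and control 2 met at the same level, with a log2 change of 0.54 ± 0.22 (adjusted p = 0.273). It was 0.35 in the deposited values and 0.19 with median scaling (0.48 relative to the median of all genes). H2bc12 had 10.03, 9.79 and 9.79 with VPA, against 9.60, 9.58 and 9.61 in control. Its groups did not overlap, with a log2 change of 0.27 ± 0.14 (adjusted p = 0.393).

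The brightest replication-dependent probes were those of the H2A genes H2ac20, H2ac24 and H2ac10. H2ac20 had log2 signals of 14.73, 14.93 and 14.79 with VPA, against 14.64, 14.91 and 14.77 in control (log2 change 0.04 ± 0.15). H2ac24 had 14.84, 14.67 and 14.80 with VPA, against 14.40, 14.66 and 14.75 in control (0.16 ± 0.16). Both ranked among the 61 brightest of 25697 probes on every array, where quantile normalization leaves little room for a difference between arrays. H2ac10 had 13.43, 14.58 and 14.59 with VPA, against 14.38, 14.35 and 14.62 in control. On VPA 1 its raw signal was 6173, against 22848 and 25454 on the other VPA arrays and 21954 to 27996 on the control arrays. Its log2 change was -0.26 ± 0.32 and turned to 0.13 without VPA 1. The other 30 replication-dependent core genes had log2 changes from -0.36 (H2ac22) to 0.46 (H3c6), with adjusted p of at least 0.302. Both ends rested on VPA 1, since without it H2ac22 turned to 0.09 and H3c6 was at 0.23.

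Some H2A and H2B genes face each other across one shared promoter. In 6 pairs of members the promoter windows overlapped on opposite strands, and in 4 pairs, all on chromosome 13, both genes were measured. H2ac12 and H2bc12 had log2 changes of 0.09 ± 0.14 and 0.27 ± 0.14. H2ac11 and H2bc11 had 0.08 ± 0.21 and -0.10 ± 0.15. H2ac15 and H2bc15 had 0.05 ± 0.16 and -0.21 ± 0.19, but -0.04 and -0.02 without VPA 1. H2ac7 and H2bc7 had 0.00008 ± 0.16 and -0.01 ± 0.16. Of these 8 genes 0 passed the test, and differences within pairs were not tested. The shared window is shown for the pair whose H2B gene had groups that did not overlap, as the H2bc12 promoter at chr13:22035571-22035870, plus strand, GRCm38.p6.
H2bc12: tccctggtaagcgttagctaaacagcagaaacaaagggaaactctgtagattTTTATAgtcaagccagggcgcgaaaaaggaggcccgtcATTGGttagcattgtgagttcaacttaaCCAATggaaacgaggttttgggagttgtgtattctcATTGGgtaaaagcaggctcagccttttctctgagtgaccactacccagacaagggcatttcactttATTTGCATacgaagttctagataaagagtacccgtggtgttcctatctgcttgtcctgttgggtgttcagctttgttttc
It held CCAAT at 3 places, on both strands, the octamer ATTTGCAT once and TATAAA once, on the strand of H2ac12. The octamer was in 5 of 11 windows of replication-dependent H2B genes and 6 of 14 of H2A genes, against 1.74% of all windows.

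By position, the 34 measured replication-dependent genes on chromosome 13 had a median log2 change of 0.03 and the 6 on chromosome 3 one of -0.17. Of those 6, H2ac21, H3c13, H3c14 and H4c14 had VPA 1 more than 0.5 below both other VPA arrays. Without VPA 1 all 6 were above 0 and the chromosome 3 median turned to 0.11, and the chromosome 13 median was 0.06.

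Genes that act on histones or their mRNAs were counted in the same fit, and 0 passed adjusted p 0.05 by limma in any of the following lists. Of 15 genes for the 3′ ends, caps and decay of histone mRNAs 13 were on the array and 8 were measured, with a median log2 change of -0.25, or -0.08 without VPA 1. At an unadjusted p under 0.05, 0 of them were higher or lower. Slbp, the stem-loop binding protein, did not pass the detection filter. The largest change was that of Cpsf3, the endonuclease that cuts histone pre-mRNA, at -0.82 ± 0.62 (adjusted p = 0.529), or -0.02 without VPA 1.

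Of 29 histone chaperones and assembly factors 20 were measured, with a median log2 change of -0.09. In 7 of them, or 35.0%, all VPA arrays lay below all control arrays, against 11.2% of all genes. At unadjusted p 0.05 there was 1 of 20 on the lower side, against 5.59% of all genes. It was Nasp, a chaperone of H3 and H4, with a log2 change of -0.48 ± 0.17 (adjusted p = 0.220). Tonsl, which reads newly made H4, had -0.89 ± 0.46 (adjusted p = 0.372), or -0.30 without VPA 1. The largest subunit of the replication-coupled chaperone CAF-1, Chaf1a, had 0.005 ± 0.19.

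A pair of histone variants outside the naming rule were measured. Cenpa, the H3 variant of centromeres, had a log2 change of 0.16 ± 0.16 (adjusted p = 0.634). Macroh2a1, an H2A variant with a macro domain, had -0.11 ± 0.14 (adjusted p = 0.725). S phase genes, with which replication-dependent histones are normally made, had a median log2 change of -0.40 over 19 measured genes, or -0.14 without VPA 1. The largest was that of Mcm3, a subunit of the replicative helicase, at -0.66 ± 0.37 (adjusted p = 0.405). Of these 19 genes 17 were below 0, against 4146 of all 7967 genes. Without VPA 1, Mcm6, Rrm1, Rrm2, Ccne1 and Rfc4 were above 0 and the rest below. The median difference of the S phase genes from their control means was -0.76, -0.14 and -0.09 for VPA 1, 2 and 3. At unadjusted p 0.05, 2 were on the lower side (5.59% of all genes), and in 6, or 31.6%, the VPA arrays lay below all control arrays (11.2% of all genes). The median of the replication-dependent histones was -0.006, and the part of S phase in the histone values was not tested. The 4 neutrophil markers had log2 changes from -1.37 to -0.30, with 0 past adjusted p 0.05 and 2 lower at unadjusted p 0.05 (5.59% of all genes). Their median difference from the control means was -0.60, -0.18 and -1.22 for VPA 1, 2 and 3, against -0.07, -0.45 and 0.61 for control 1, 2 and 3. The macrophage marker Adgre1 had a log2 change of 0.78 ± 0.33 (adjusted p = 0.290), and was higher at unadjusted p 0.05. The B cell marker Cd79b had -0.25 ± 0.14 (adjusted p = 0.426), with all VPA arrays below all control arrays, as in 11.2% of all genes. The erythroid marker Hba-a1 had log2 signals of 9.33, 10.20 and 6.38 with VPA, against 8.34, 6.37 and 10.49 in control, a wide spread within both groups. The part of these cell types in the histone values was not tested.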

How the data were processed

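RNA of 6 cultures was amplified, biotin labelled and hybridised to single-colour Illumina BeadChips, 1 array per culture. Per the file headers, the deposited table holds raw mean signal intensity per probe and a detection p-value, and the submitters' processing notes name GenomeStudio. A second deposited table holds log2 values normalized by the authors by a method not given in the sources used here. It was used as an alternative. Its array medians were all 6.94, and the histone probes kept the rank order of the raw signals on every array.

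The neqc function of limma 3.58.1 (R 4.3.3) corrected background, added an offset of 16, quantile normalized and took log2. Probes detected (p under 0.05) on at least 3 of 6 arrays were kept, 11115 in all, or 43.3%. Log2 fold changes, VPA minus control, came from lmFit and eBayes, with p-values adjusted over all kept probes (Benjamini-Hochberg). The probe of highest mean stands for its gene. Errors are SE of the fit or SD over n = 3 arrays, and 3 arrays per group limit the precision. An exact permutation test of one gene could not go below 0.1. The series design calls the triplicates independent and biological.

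Symbols came from the platform annotation, and all 68 matched the RefSeq gene table of GRCm38.p6 by gene identifier, 0 of them changed. RefSeq promoters were at hand for 62. The histone genes and all lists were chosen with earlier results of these data known. Values per array are given for genes past the threshold, for linker and replacement genes, and for the 3 highest, 3 lowest and 3 brightest replication-dependent core genes. From each other list the gene of largest change is named. H2bc12, the other H3 genes, the pairs, Nasp and Chaf1a were chosen after their values were seen. Same-numbered VPA and control arrays had correlations of deviations of 0.128, -0.0564 and 0.0521, and those with different numbers had -0.113 to 0.15. The numbers were not taken as pairs, though with 3 arrays per group these values cannot settle whether they are. The fit was tested on simulated data.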

Additional observations from a re-analysis of the deposited data

How the results depend on the processing

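The count of called genes, the class medians and the changes of H1f10 and the 17 other genes shown by array were recomputed under 16 alternatives. H2al1e and H2al1m gave no value where probes had to be detected on all arrays or VPA 1 was left out of the normalization too. The count of 1 histone gene past the threshold became 0 with median scaling, without a detection filter and with the replicate block, and 6 with array weights (H1f10, H2bc4, H3c3, H3c4, H3c10 and H3f3a), where 31.3% of all genes passed and the estimate of the weights stopped before it converged. Leaving out 1 array gave 0 to 1. The call of H1f10 ended with median scaling (log2 change 0.69, adjusted p = 0.105), without a detection filter (1.00, 0.0653) and with the replicate block (1.00, 0.0621). Whether the replicate numbers pair the arrays is not known. Leaving out 1 array gave 0.85 to 1.12, and the call held only where that array was VPA 1. It held in the alternatives not named here. The cause was not tested, beyond that fewer arrays or more probes were tested in some.

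The median of the replication-dependent genes moved by more than the SD between array medians (0.0294) with median scaling (-0.22), without a detection filter (0.0549) and with VPA 1 left out of the normalization too (0.0710). It did so also in the fit without control 3 (0.0399), without VPA 1 (0.0824) or without VPA 3 (0.0276). When 1 array was left out it lay between -0.0114 and 0.0824. That of the replacement genes was -0.22 with median scaling and lay between -0.0335 and 0.0547 when 1 array was left out. With median scaling both class medians lay 0.07 above that of all genes.

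Of 268 values of 17 other named genes under the alternatives, 25 had the opposite sign. With median scaling these were H2aj (-0.34), H2al1m (-0.0951) and H2ax (-0.21). Relative to the median of all genes, which median scaling shifted to -0.29, they were -0.0447, 0.198 and 0.0809. With array weights they were H2ac10 (0.13), H2aj (-0.17), H2al1e (-0.0723), H2al1m (-0.31) and H3f3b (0.28). With VPA 1 left out of the normalization too they were H2ac10 (0.12), H2aj (-0.19) and H3f3b (0.31). With the mean of probes H3f3a was at 0.23, and in the deposited values H3f3b was at 0.0251. Leaving out 1 array turned H2ac10 (-0.45 to 0.13), H2ac20 (-0.0230 to 0.11), H2aj (-0.19 to 0.12), H2al1m (-0.12 to 0.20), H2ax (-0.0269 to 0.17) and H3f3b (-0.17 to 0.31). Array weights also brought H2bc4, H3c10 and H3f3a past the threshold.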
